A study of Homo sapiens with 24 samples.

Results

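Untreated FaDu and untreated SAS spheroids were compared by RNA-Seq in 6 of the 24 libraries of the series, the 3 Control libraries of each line, chosen by their group label alone. Both lines derive from head and neck squamous cell carcinoma (HNSCC), FaDu as a subline of an ATCC stock and SAS from the JCRB collection. Spheroids had been cultured for 4 days, control spheroids were kept at 37 °C, and each line was sampled in N = 3 independent experiments. The remaining libraries come from spheroids exposed to hyperthermia (HT), irradiation (RT) or both, and of these only the RT libraries enter a second comparison of the lines.

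The FaDu control libraries held 17690374, 17763912 and 21862472 raw counts, and the SAS control libraries 19645956, 18201500 and 17797336. A count was found for 23158, 24065 and 24810 of 57500 listed genes in the FaDu libraries and for 21791, 22021 and 22441 in the SAS libraries. Genes of the mitochondrial genome took 1.98%, 2.77% and 2.49% of the counts in FaDu and 1.25%, 1.45% and 1.72% in SAS, so this share was higher in every FaDu library. Levels below are in CPM after TMM scaling over the 6 libraries, and they compare a gene between libraries, not genes with each other. Errors of group means are SD with n = 3. The log2 fold change is FaDu over SAS, so that negative values are higher in SAS, and the adjusted p is from the edgeR quasi-likelihood test with Benjamini-Hochberg correction over all genes tested.

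Stratified squamous epithelium is kept by transcription factors such as p63 and SOX2, is built on keratins paired as type I and type II, and is held together by desmosomes and anchored by integrins and laminins. As its cells differentiate they switch keratins, make cornified envelope proteins and secrete proteases of the kallikrein family with their inhibitors. HNSCC arises in this epithelium, and its cell lines keep different parts of that program, with recurrent alterations of the squamous factors, of growth factor receptors and of the TGF-beta, Hippo and cell cycle genes.

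The label of both lines as squamous carcinoma was checked against markers. All 14 squamous epithelial markers reached 1 CPM in both lines, and their summed level was 12600, 13200 and 12800 CPM in the FaDu libraries and 6370, 6290 and 6890 CPM in the SAS libraries. Keratin 17 (KRT17), a keratin of activated and basal-like epithelium, had the most reads of them in each line, 4450 ± 596 CPM in FaDu and 1510 ± 89.9 CPM in SAS. Fibroblast markers summed to 38.3, 45.3 and 49.1 CPM in FaDu, most of it from COL1A1, and to 9.99, 11.4 and 11.4 CPM in SAS, most of it from FAP, of which FaDu held a count only in FaDu Control 1. Endothelial markers summed to 7.95, 9.08 and 7.9 CPM in FaDu and to 17.9, 20.9 and 11.1 CPM in SAS, with most reads from CDH5 and KDR and EMCN without a count in either line. Leukocyte markers summed to 9.09, 9.54 and 9.01 CPM in FaDu and 14.9, 11.3 and 16.3 CPM in SAS, mainly CD14, and CD3D and MS4A1 had no count. Neural and neuroendocrine markers summed to 2.71, 2.44 and 2.73 CPM in FaDu and to 11.8, 11.2 and 6.98 CPM in SAS, where MAP2 led.

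A single library stood apart within its group. Of 10544 protein-coding genes with at least 5 CPM in the FaDu controls, 43 were more than 1 log2 unit higher in FaDu Control 1 than in both other FaDu libraries and 38 were more than 1 log2 unit lower, against 0 and 0 for FaDu Control 2 and for FaDu Control 3. Among the 43 higher genes 19 were altered and higher in SAS and 10 altered and higher in FaDu, and among the 38 lower genes 24 were altered and higher in FaDu and 5 higher in SAS, beside 21.2% higher in FaDu and 16.8% in SAS of all genes tested. No test was made of whether these shares differ. IL24, a cytokine of the IL-10 family, showed this at 22.6, 2.23 and 2.35 CPM in FaDu and 22.2, 26.3 and 12.7 CPM in SAS, and LCN2, an iron-binding protein of stressed epithelium, at 34.4, 134 and 131 CPM in FaDu and 19.2, 27.3 and 36.7 CPM in SAS. Neither IL24 (adjusted p = 0.35) nor LCN2 (adjusted p = 0.055) was altered with all 6 libraries. Without FaDu Control 1 the log2 fold change was -3.15 for IL24 (adjusted p = 0.00068) and 2.27 for LCN2 (adjusted p = 0.0041), an alternative chosen after seeing the data. Both genes are shown because FaDu Control 1 deviates in them, so the fit without it restates that deviation and adds no support. Under upper-quartile scaling LCN2 passed at 1.97 (adjusted p = 0.047). SAS Control 3 held 8 such higher genes and 6 such lower ones of 10216, and the other SAS libraries at most 1.

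Of 15810 genes tested, 6013 were altered between the lines, which is 38.0%, where altered means that the adjusted p was below 0.05 and the log2 fold change beyond 1 in either direction. FaDu was higher for 3353 of them (21.2%) and SAS for 2660 (16.8%), and the median log2 fold change over all genes tested was 0.03 with a median absolute value of 0.72. In 5987 altered genes all 3 libraries of a line lay above all 3 of the other, a state found in 12318 or 77.9% of the genes tested. Every altered gene named below is among the 5987. Of 13288 protein-coding genes tested, 2675 were higher in FaDu and 2117 in SAS (36.1%), of 615 long intergenic RNAs 186 and 166 (57.2%), of 788 antisense genes 215 and 152 (46.6%), of 251 processed pseudogenes 44 and 58 (40.6%) and of 223 transcribed unprocessed pseudogenes 62 and 50 (50.2%). The difference between types was not tested. The 31 lists of programs described below hold 891 tested genes. Of these, 272 were higher in FaDu and 232 in SAS, so that 56.6% of them were altered. Lists and members were chosen with earlier results of these data known, so a share above that of all genes is no result about the programs. Differences between the shares of a list and those of all genes were not tested. A tested gene without a count in a line passed the filter through the other line alone, so only 1 direction was open to it.

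**Figure D1:**
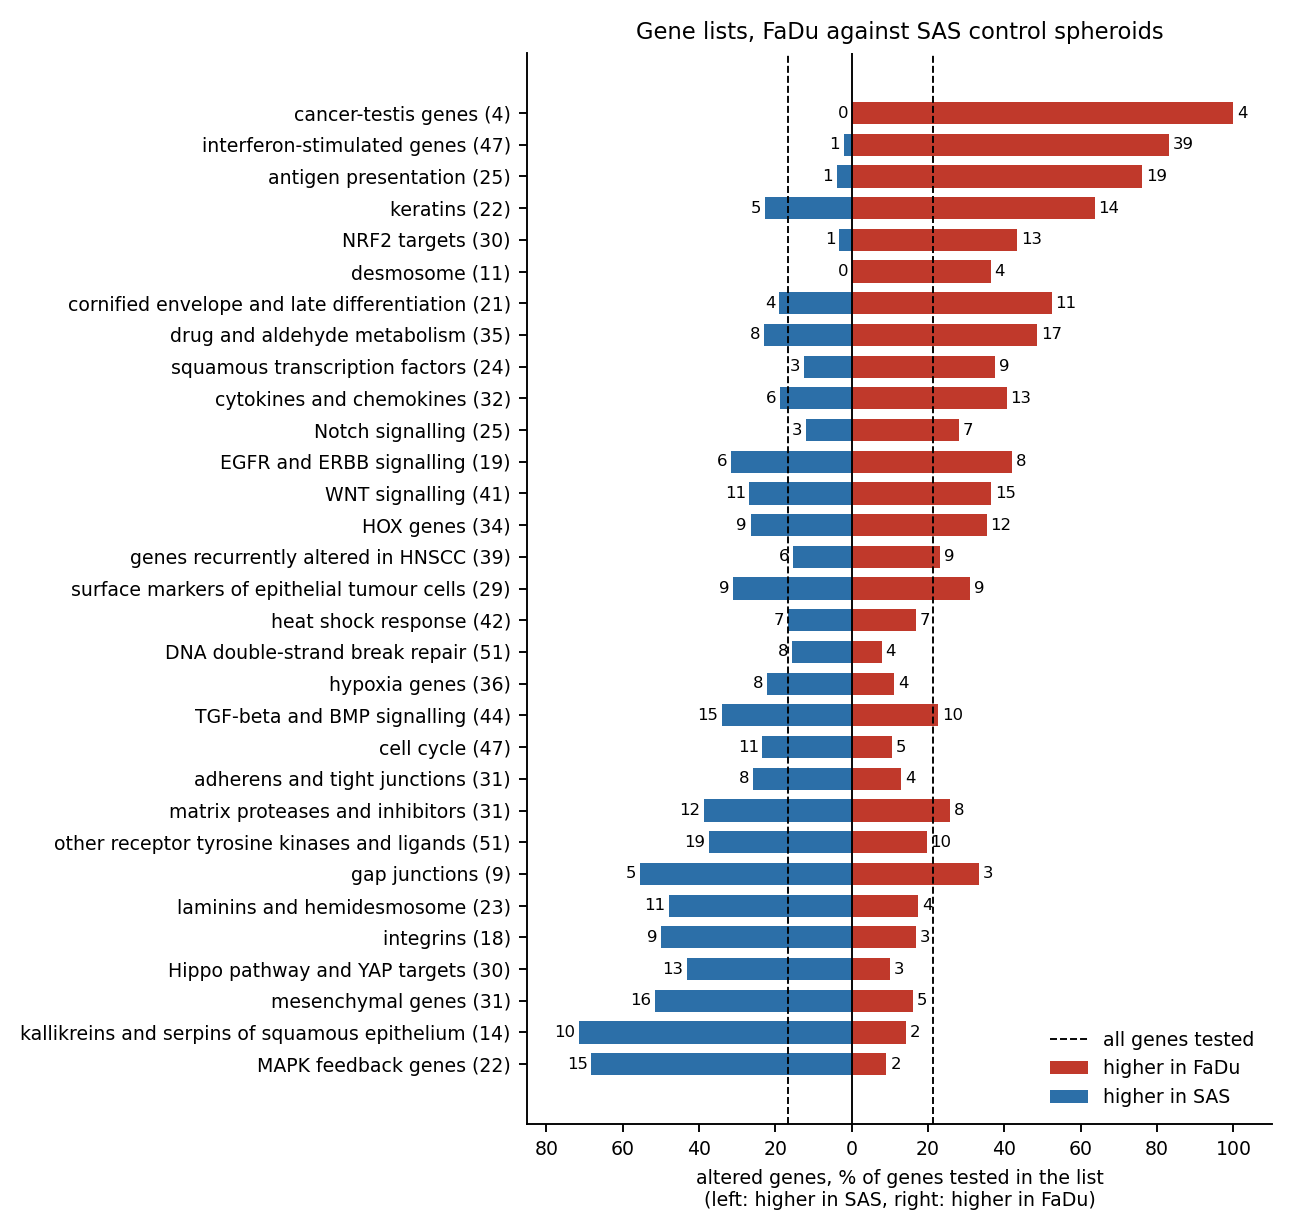
Share of tested genes altered in each of 31 gene lists, in % of the genes tested (number in brackets), to the right for genes higher in FaDu and to the left for genes higher in SAS, with counts at the bar ends and dashed lines at 21.2% and 16.8% for all genes tested. Interferon and antigen presentation genes lie far to the FaDu side, MAPK feedback genes, kallikreins with serpins and mesenchymal genes to the SAS side.

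TP63, the master regulator of squamous identity, stood at 274, 230 and 264 CPM in FaDu and 175, 183 and 246 CPM in SAS. The groups overlapped and TP63 was not altered (log2 fold change 0.35, SE 0.14, adjusted p = 0.052). Of the 24 squamous transcription factors tested, 9 (37.5%) were higher in FaDu and 3 (12.5%) in SAS, beside 21.2% and 16.8% of all genes. The list had a median log2 fold change of 0.48. SOX2, the partner of p63 that is amplified in many squamous carcinomas, stood at 11.9, 12.6 and 12.9 CPM in FaDu and 0.492, 0.346 and 0 CPM in SAS (log2 fold change 5.42, SE 0.37, adjusted p = 1.2e-07, and a log2 fold change of 6.09 without SAS Control 1). Every FaDu library held more SOX2 than any SAS library, and a SAS library had no count of it. PAX9, a paired-box factor of oral and pharyngeal epithelium, reached 70.7, 79.1 and 88.1 CPM in FaDu and 13.1, 14.2 and 17.2 CPM in SAS (log2 fold change 2.42, SE 0.11, adjusted p = 2.2e-09). BARX2, a homeobox factor of epithelial buds, gave 14.8 ± 3.38 CPM in FaDu and 0.937 ± 0.339 CPM in SAS, and KLF4, a factor of suprabasal differentiation, 59.6 ± 9.66 and 11.4 ± 2.53 CPM. KLF5, GRHL1, ZNF750 and TRIM29 were higher in FaDu too, with log2 fold changes of 1.18, 1.50, 1.69 and 1.27. The reverse held for TP73, a relative of TP63, at 1.25, 1.91 and 0.812 CPM in FaDu and 18.5, 17.8 and 24.1 CPM in SAS (log2 fold change -3.95, SE 0.24, adjusted p = 3.6e-08). The basal factor BNC1 had 55.2 ± 13.3 CPM in FaDu and 145 ± 4.82 CPM in SAS, and GRHL3, a factor of barrier formation, 1.53 ± 0.625 and 4.05 ± 1.11 CPM. Under glmTreat KLF5 and GRHL3 did not pass. TFAP2A and GRHL2, other factors of the epidermal lineage, had log2 fold changes of 0.00 and 0.10 and were not altered.

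HOX genes, which record the position of a cell along the body axis and are kept in 4 clusters, were altered in both directions. Of the 34 HOX genes tested, 12 (35.3%) were higher in FaDu and 9 (26.5%) in SAS, beside 21.2% and 16.8% of all genes. The list had a median log2 fold change of -0.16. In the HOXB cluster HOXB7 read 20.2, 18.9 and 19.9 CPM in FaDu and 0.656, 0.231 and 0.179 CPM in SAS (log2 fold change 5.74, SE 0.26, adjusted p = 6.7e-10, and a log2 fold change of 6.53 without SAS Control 1). HOXB3 and HOXB4 followed with 13.1 ± 1.68 and 8.65 ± 1.44 CPM in FaDu against 0.322 ± 0.0749 and 0.289 ± 0.21 CPM in SAS, where HOXB4 went from a log2 fold change of 4.88 to 5.59 without SAS Control 2. HOXB2 held 550 counts over the FaDu libraries and 1 over the SAS libraries, a ratio of 475 (95% counting interval 84.9 to 18800), and without SAS Control 1, which held that count, HOXB2 was at least 103-fold higher in FaDu. HOXB13, the most posterior gene of the cluster, had 14.8, 11 and 12.4 CPM in FaDu and no count in SAS, at least 222-fold higher in FaDu against a floor of 3 counts over the 3 SAS libraries, and bounds without a library take 3 counts over those left in the line without a count. Such intervals and floors cover counting error only. Within the same cluster HOXB9 ran the other way, 0.501 ± 0.229 CPM in FaDu and 6.35 ± 0.754 CPM in SAS. In the HOXD cluster HOXD10 read 0.325, 0.69 and 0.556 CPM in FaDu and 31, 29.9 and 35.9 CPM in SAS (log2 fold change -5.92, SE 0.19, adjusted p = 3.7e-11). HOXD9 and HOXD11, its neighbours, were higher in SAS by the same sign with 7.14 ± 1.42 and 12.7 ± 1.81 CPM there and 0.068 ± 0.0353 and 0.765 ± 0.408 CPM in FaDu, and HOXD4 had no count in FaDu and 5.41, 5.65 and 4.53 CPM in SAS, at least 105-fold lower in FaDu. In the HOXA cluster HOXA7 and HOXA9 were higher in FaDu (log2 fold changes 2.72 and 2.04), HOXA11 in SAS (-1.27), and HOXA10 was at 18.2 ± 0.532 CPM in FaDu and 19.8 ± 0.457 CPM in SAS and not altered.

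Keratins are the intermediate filaments of epithelium. Of the 22 keratins tested, 14 (63.6%) were higher in FaDu and 5 (22.7%) in SAS, beside 21.2% and 16.8% of all genes. The list had a median log2 fold change of 1.41. KRT5, the type II keratin of basal squamous cells, had 3860 ± 228 CPM in FaDu and 1230 ± 66.5 CPM in SAS, and KRT4 and KRT13, the pair of mucosal suprabasal cells, 262 ± 165 and 197 ± 77.5 CPM in FaDu against 0.172 ± 0.153 and 0.322 ± 0.2 CPM in SAS. Within FaDu the lowest library for both was FaDu Control 1, at 72.6 and 108 CPM, above every SAS library, and KRT4, at a log2 fold change of 10.52, kept 3 SAS counts without SAS Control 2, a ratio of 3140 (95% counting interval 1080 to 15200). KRT7, a keratin of simple and glandular epithelium, had 10.1 ± 0.595 CPM in FaDu and 2680 ± 152 CPM in SAS (log2 fold change -8.05, SE 0.09, adjusted p = 6.5e-15).

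Late differentiation genes were altered in both directions. Of the 21 cornified envelope and late differentiation genes tested, 11 were higher in FaDu and 4 in SAS. These are 52.4% and 19%, beside 21.2% and 16.8% of all genes. The list had a median log2 fold change of 1.34, and 18 of the 39 listed were too low to be tested. LY6D, a GPI-anchored protein of squamous epithelium, read 496, 476 and 437 CPM in FaDu and 1.91, 2.54 and 2.26 CPM in SAS (log2 fold change 7.71, SE 0.11, adjusted p = 1.8e-14). TGM1, the transglutaminase that crosslinks the envelope, read 43.4, 76.7 and 70.1 CPM in FaDu and 1.37, 1.56 and 1.49 CPM in SAS (log2 fold change 5.43, SE 0.30, adjusted p = 2.3e-06). The levels did not overlap for either gene. S100A8 and S100A9, which pair as calprotectin, did not keep a common ratio. S100A8 had 40.3 ± 13.9 CPM in FaDu and 0.115 ± 0.00501 CPM in SAS, and S100A9, which did not pass under glmTreat, 193 ± 64.7 and 55.7 ± 17.1 CPM. Envelope proteins IVL and SPRR1B gave log2 fold changes of 2.18 and 4.52. On the SAS side stood CALML3, a calmodulin-like protein of keratinocytes, at 5.31, 2.65 and 2.14 CPM in FaDu and 37.7, 38.6 and 47.4 CPM in SAS, the membrane protein EMP1 (log2 fold change -1.27), the lipoxygenase ALOXE3 (-2.32) and FLG, the precursor of filaggrin (-1.64).

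Epidermal proteases and their inhibitors were altered in both directions. Of the 14 kallikreins and squamous serpins tested, 2 were higher in FaDu and 10 in SAS (median log2 fold change -1.44). These are 14.3% and 71.4%, beside 21.2% and 16.8% of all genes, a difference that was not tested. KLK6, a trypsin-like kallikrein, read 29.6, 11.1 and 11.5 CPM in FaDu and 730, 805 and 741 CPM in SAS (log2 fold change -5.46, SE 0.48, adjusted p = 0.00041). KLK5, which starts the desquamation cascade, read 20.8, 13.5 and 14.7 CPM in FaDu and 255, 270 and 281 CPM in SAS (log2 fold change -4.04, SE 0.15, adjusted p = 6.1e-08). Both were highest within FaDu in FaDu Control 1, and for both every SAS library was above every FaDu library. KLK7, KLK8, KLK9 and KLK10 were higher in SAS as well, with log2 fold changes of -2.60, -1.56, -3.19 and -1.32. Without FaDu Control 1 the log2 fold change of KLK6 was -6.06, and KLK8 did not pass under glmTreat. SERPINB2, the plasminogen activator inhibitor type 2, read 0.0542, 0.212 and 0.299 CPM in FaDu and 308, 372 and 247 CPM in SAS (log2 fold change -10.57, SE 0.31, adjusted p = 1.1e-07). The exceptions were SERPINB13, a cysteine protease inhibitor of squamous cells, with 33.7 ± 5.09 CPM in FaDu and 1.85 ± 0.571 CPM in SAS, and SPINK5, the inhibitor of KLK5 and KLK7, with 4.2 ± 0.402 and 0.539 ± 0.189 CPM.

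Desmosomes are the spot junctions that hold keratinocytes together. Of the 11 desmosome genes tested, 4 were higher in FaDu and 0 in SAS (median log2 fold change 0.80), or 36.4% and 0% beside 21.2% and 16.8% of all genes, a difference that was not tested. DSC3, a desmosomal cadherin of squamous cells, read 187, 224 and 233 CPM in FaDu and 51.7, 50 and 73.9 CPM in SAS (log2 fold change 1.88, SE 0.17, adjusted p = 5.7e-05), and DSG3, its partner, had 117 ± 9.88 CPM in FaDu and 38.1 ± 10.7 CPM in SAS. DSP, the plakin that ties the junction to keratin and which like PKP1 did not pass under glmTreat (2 of the 4 genes passed), had 914 ± 135 CPM in FaDu and 344 ± 84.9 CPM in SAS (log2 fold change 1.41, SE 0.21, adjusted p = 0.0015), and the plakophilin PKP1 158 ± 30.7 and 76.4 ± 14 CPM. PKP1 was close to the fold limit at 1.05, and under it at 0.94 without FaDu Control 2 and 0.92 without SAS Control 2. SAS Control 3 was the highest SAS library for DSC3, DSG3 and DSP. The more widely expressed desmosomal genes DSG2, JUP and PKP2 had log2 fold changes of -0.48, 0.26 and -0.60 and were not altered.

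Adherens and tight junction genes were altered in both directions, 4 higher in FaDu and 8 in SAS of 31 tested (median log2 fold change -0.27), or 38.7% beside 38.0% of all genes. CDH1, the E-cadherin of epithelial cells, read 140, 181 and 177 CPM in FaDu and 207, 204 and 187 CPM in SAS. Its levels did not overlap, and at a log2 fold change of -0.26 (SE 0.09, adjusted p = 0.022) it stayed under the fold limit. CTNNB1, the beta-catenin that links cadherins to actin and acts in WNT signalling, read 369, 371 and 371 CPM in FaDu and 1020, 1070 and 1000 CPM in SAS (log2 fold change -1.48, SE 0.06, adjusted p = 1.9e-10). CDH3, the P-cadherin of basal cells, had 184 ± 10.8 CPM in FaDu and 404 ± 30.3 CPM in SAS, and the adhesion molecule EPCAM 139 ± 2.37 and 289 ± 27 CPM (log2 fold change -1.05, -0.99 without SAS Control 1 and -0.94 under upper-quartile scaling, and not passing under glmTreat). The claudins of tight junctions parted, with CLDN1 and CLDN11 higher in SAS (log2 fold changes -1.76 and -3.40), CLDN3 higher in FaDu by a ratio of 40.6 (95% counting interval 13.6 to 199), and CLDN4 not altered (0.39). TJP3, a scaffold under tight junctions, had 13.3, 29.7 and 27.8 CPM in FaDu and 0.71, 0.231 and 0.238 CPM in SAS (log2 fold change 5.86, and 6.61 without SAS Control 1). NECTIN3, a nectin that pairs with other nectins across cells, held 939 counts in the FaDu libraries and 1 in the SAS libraries, a ratio of 811 (95% counting interval 145 to 32100), and without SAS Control 2, which held that count, NECTIN3 was at least 181-fold higher in FaDu. Its relatives NECTIN1 and NECTIN2 had log2 fold changes of 0.88 and 0.21 and were not altered.

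Connexins, which form the channels of gap junctions, were listed together with pannexins, and nearly every member differed. Of the 9 genes of this list tested, 3 were higher in FaDu and 5 in SAS (median log2 fold change -1.45). These are 33.3% and 55.6%, beside 21.2% and 16.8% of all genes. GJA1, the connexin 43 of many epithelia, read 12.2, 9.71 and 9.96 CPM in FaDu and 0, 0 and 0.0596 CPM in SAS, 642 counts against 1, a ratio of 554 (95% counting interval 99.1 to 21900). Without SAS Control 3, which held that count, GJA1 was at least 126-fold higher in FaDu. GJC1, connexin 45, read 0.271, 0.902 and 0.897 CPM in FaDu and 48.5, 50.4 and 51.1 CPM in SAS (log2 fold change -6.13, SE 0.20, adjusted p = 9.0e-11). FaDu was thus the line high for GJA1 and SAS the line high for GJC1, with no overlap for either. Of the epidermal connexins GJB2 was higher in SAS (log2 fold change -1.76), and GJB5 was not altered (-0.21). The pannexins, which form channels in a single membrane, split too, PANX1 at -1.45 and PANX2 at 2.70.

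Integrins and laminins, the receptors and ligands of the basement membrane, were altered in both directions. Of the 18 integrins tested, 3 were higher in FaDu and 9 in SAS (16.7% and 50%). Of 23 laminin and hemidesmosome genes 4 and 11 were so (17.4% and 47.8%), and the medians were -1.03 and -0.96. Of all genes 21.2% were higher in FaDu and 16.8% in SAS, and the difference from these shares was not tested. ITGA4, the alpha chain of VLA-4, had no count in FaDu and 55, 57.6 and 68 CPM in SAS, at least 1220-fold lower in FaDu, while ITGB1, the beta chain shared by many integrins, was at 426 ± 40.6 CPM in FaDu and 396 ± 3.81 CPM in SAS and not altered. COL17A1, the collagen of hemidesmosomes, was higher in FaDu at 517 ± 178 CPM in FaDu and 100 ± 23.7 CPM in SAS, and NID1, which bridges laminin and collagen IV, held 3224 counts in FaDu and 2 in SAS, a ratio of 1390 (95% counting interval 385 to 11500).

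Of 31 genes of mesenchymal character tested, 5 were higher in FaDu, 16 were higher in SAS and 10 were not altered. Those higher in FaDu and in SAS made up 16.1% and 51.6%, beside 21.2% and 16.8% of all genes. The list had a median log2 fold change of -2.29. SPARC, a matricellular protein, read 0, 0.159 and 0.128 CPM in FaDu and 838, 842 and 729 CPM in SAS (log2 fold change -12.90, SE 0.19, adjusted p = 4.4e-13). FN1, the fibronectin of the matrix, had 6.41 ± 0.58 CPM in FaDu and 1030 ± 290 CPM in SAS. COL1A1, a chain of type I collagen, ran opposite at 43.2 ± 5.74 CPM in FaDu and 1.34 ± 0.45 CPM in SAS, and vimentin (VIM) had 0.057 ± 0.0987 and 2.67 ± 0.314 CPM, with its 4 FaDu counts all in FaDu Control 3 (log2 fold change -5.22). Without that library VIM had no count in FaDu and was at least 33.2-fold lower there. SNAI2, TWIST1 and CDH2, transcription factors and a cadherin of the mesenchymal state, had log2 fold changes of -0.56, 0.02 and -0.28 and were not altered.

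Matrix-degrading enzymes were altered in both directions within families. Of the 31 matrix proteases and inhibitors tested, 8 were higher in FaDu and 12 in SAS (median log2 fold change -0.49). These are 25.8% and 38.7%, beside 21.2% and 16.8% of all genes. MMP13, a collagenase, read 50.7, 43.3 and 48.6 CPM in FaDu and 0.382, 0.577 and 0.119 CPM in SAS (log2 fold change 7.01, SE 0.22, adjusted p = 2.9e-11). MMP10, the stromelysin 2, read 28.1, 56.5 and 55.9 CPM in FaDu with 2892 counts over the libraries and 1 in SAS, a ratio of 2500 (95% counting interval 448 to 98700), and without SAS Control 2, which held that count, MMP10 was at least 548-fold higher in FaDu. MMP12, the macrophage elastase, had 13.6 ± 1.29 CPM in FaDu and 0.112 ± 0.0923 CPM in SAS (log2 fold change 6.81). Without SAS Control 1 MMP12 kept 2 SAS counts, a ratio of 232 (95% counting interval 64 to 1920). All 3 were higher in every FaDu library. MMP1, the interstitial collagenase, was not altered at a log2 fold change of 0.80. It passed at 1.14 without SAS Control 1 and was at 0.46 without FaDu Control 1 (adjusted p = 0.3). MMP2, the gelatinase A, was the reverse with 0.812, 0.478 and 0.342 CPM in FaDu and 41.1, 41.3 and 51 CPM in SAS (log2 fold change -6.38, SE 0.20, adjusted p = 3.9e-11). The inhibitors TIMP3 and TIMP2 followed MMP2, at 12.6 ± 2.37 and 32.5 ± 4.02 CPM in FaDu against 329 ± 16.8 and 101 ± 19.1 CPM in SAS, and TIMP1 had a log2 fold change of -0.87 and was not altered, but passed at -1.05 without FaDu Control 1. ADAM8 was higher in FaDu (4.04), and ADAM12 (-4.96), ADAMTS1 (-7.16) and ADAMTS6 (-4.06) in SAS.

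**Figure D2:**
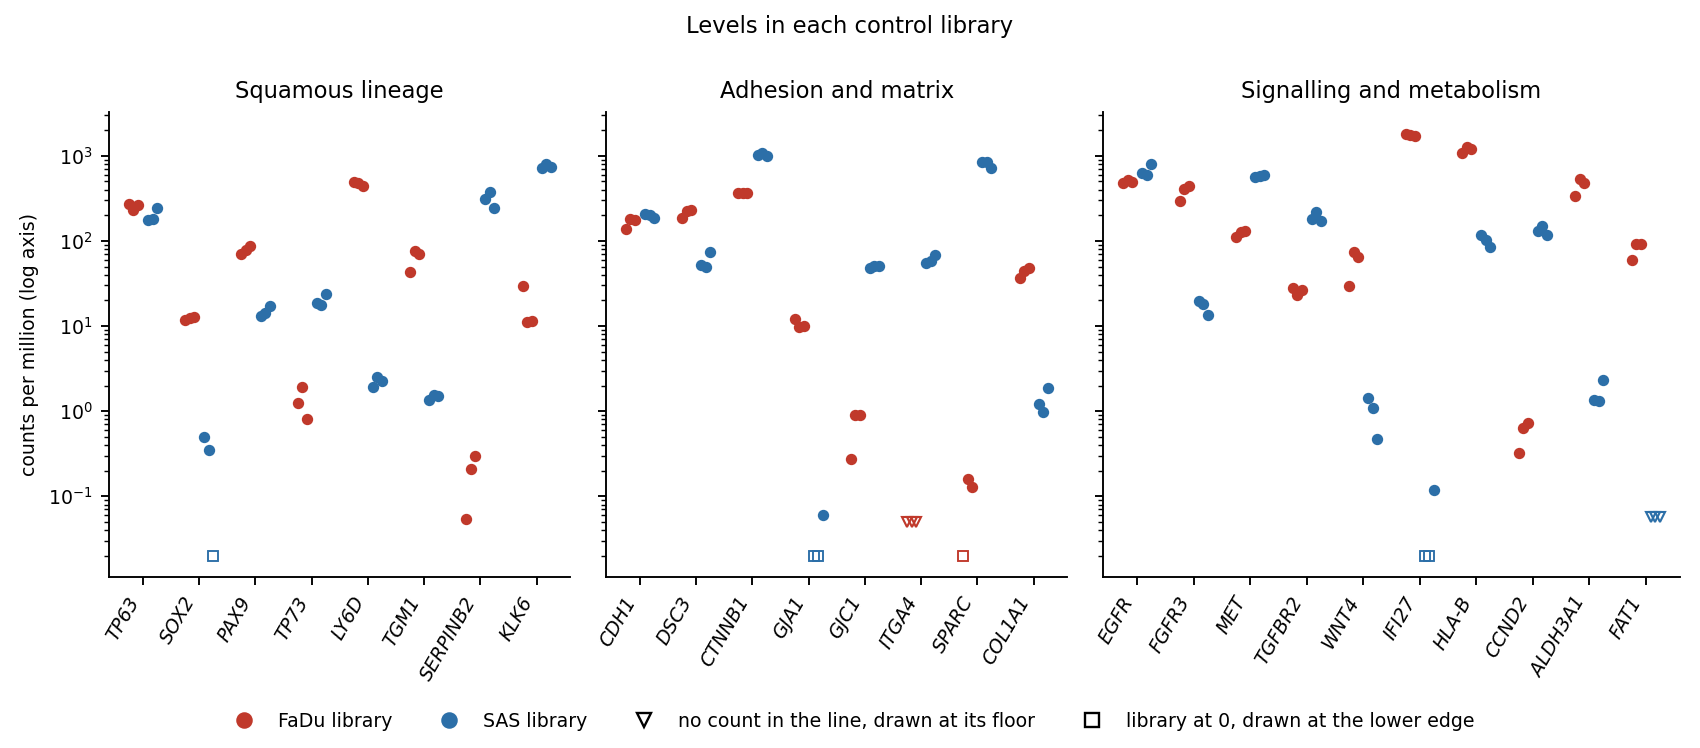
CPM (log axis) of 26 genes in each of the 6 control libraries, each point a library, red for FaDu and blue for SAS, triangles at the floor where no library of a line had a count and open squares at the lower edge for libraries at 0 in a line with counts. TP63 overlaps between the lines, CDH1 and EGFR do not overlap but lie close, and the other genes are altered with no overlap.

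Growth factor signalling of the ERBB family differed in ligands more than in the main receptor. EGFR, the receptor targeted in HNSCC therapy, read 475, 514 and 497 CPM in FaDu and 623, 590 and 797 CPM in SAS. The SAS libraries were all higher, by a log2 fold change of -0.44 (SE 0.10, adjusted p = 0.0033), which is under the fold limit. Of the 19 EGFR and ERBB genes tested, 8 were higher in FaDu and 6 in SAS (median log2 fold change 0.85). These are 42.1% and 31.6%, beside 21.2% and 16.8% of all genes. ERBB3, the kinase-poor partner receptor, read 70.7, 96.8 and 95.3 CPM in FaDu and 32.2, 27.5 and 34.6 CPM in SAS (log2 fold change 1.48, SE 0.13, adjusted p = 7.3e-06), and ERBB2 was not altered at 0.92, but passed at 1.04 under upper-quartile scaling. Of the EGFR ligands, EPGN and BTC were higher in FaDu, with 11.3 ± 0.778 and 18 ± 2.83 CPM there and 0.243 ± 0.224 and 3.91 ± 0.71 CPM in SAS. Without SAS Control 1 the log2 fold change of EPGN went from 5.47 to 6.50. EGF itself had 1.08, 1.11 and 1.79 CPM in FaDu and no count in SAS, at least 23.2-fold higher in FaDu. TGFA and HBEGF were the ligands higher in SAS, with 102 ± 30 and 72.5 ± 24.7 CPM there and 21.2 ± 6.28 and 24.9 ± 2.82 CPM in FaDu. AREG, a further ligand, was not altered (-0.83) and passed without FaDu Control 1 (-1.03, adjusted p = 0.0073). NRG4, a ligand of ERBB4, had 6.66 ± 1.12 CPM in FaDu and 0.387 ± 0.194 CPM in SAS. Of the brakes, ERRFI1, an inhibitor of the EGFR kinase, and CBL, its ubiquitin ligase, were higher in SAS (log2 fold changes -2.29 and -1.64). Without FaDu Control 1 the list stood at 7 higher in FaDu and 7 higher in SAS, and under glmTreat at 6 and 3, where HBEGF did not pass.

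Other receptor tyrosine kinases and their ligands were altered in both directions. Of the 51 genes tested, 10 (19.6%) were higher in FaDu and 19 (37.3%) in SAS, beside 21.2% and 16.8% of all genes. The list had a median log2 fold change of -0.28. FGFR3, the fibroblast growth factor receptor of squamous and urothelial cells, read 298, 411 and 437 CPM in FaDu and 19.8, 18.2 and 13.4 CPM in SAS (log2 fold change 4.48, SE 0.22, adjusted p = 5.9e-06). FGFR2, its relative, read 13.8, 24.8 and 24.2 CPM in FaDu and 92.3, 92.2 and 110 CPM in SAS (log2 fold change -2.23, SE 0.23, adjusted p = 0.0002). The family was split between the lines, with FGFR4 higher in FaDu (2.50) and FGFR1 in SAS (-1.44). MET, the receptor of hepatocyte growth factor, read 111, 127 and 132 CPM in FaDu and 564, 578 and 598 CPM in SAS (log2 fold change -2.23, SE 0.07, adjusted p = 4.3e-11). AXL and its ligand GAS6 had 53 ± 22.1 and 16.8 ± 1.11 CPM in FaDu and 407 ± 27.1 and 141 ± 17.3 CPM in SAS. VEGFC, which drives lymphatic growth, had 5.14, 1.43 and 1.03 CPM in FaDu and 57.1, 49 and 47.9 CPM in SAS, and VEGFA, the main angiogenic factor, was not altered (0.47). Without FaDu Control 1 VEGFC moved from -4.39 to -5.39, PDGFB to -4.81 and ROR1 to -5.06. The platelet-derived factors PDGFA, PDGFB and PDGFC were higher in SAS (log2 fold changes -1.36, -3.94 and -1.48), as were the WNT5A receptors ROR1 and ROR2 (-4.42 and -4.01) and the insulin receptor INSR (-1.87). On the FaDu side stood the ephrin receptor EPHB3 (2.80), and EPHA7 with 0.975, 1.17 and 2.69 CPM in FaDu and no count in SAS, at least 28.2-fold higher in FaDu. Without FaDu Control 3 EPHA7 was at least 18.7-fold higher in FaDu.

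Feedback genes of the MAPK cascade, which are transcribed when ERK is active, were higher in SAS in 15 of 22 tested and in FaDu in 2. The shares were 68.2% in SAS and 9.09% in FaDu, beside 16.8% and 21.2% of all genes. The list had a median log2 fold change of -1.62. DUSP6, the ERK phosphatase, had 18.3, 5.57 and 6.28 CPM in FaDu and 170, 188 and 154 CPM in SAS, and FaDu Control 1 was again the highest FaDu library (log2 fold change -4.11, and -4.84 without it).

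TGF-beta restrains growth of squamous cells and drives matrix genes, and its ligands TGFB1 and TGFB2, its type II receptor and its co-SMAD were higher in SAS. Of the 44 TGF-beta and BMP genes tested, 10 were higher in FaDu and 15 in SAS (median log2 fold change -0.56). These are 22.7% and 34.1%, beside 21.2% and 16.8% of all genes. TGFB2 read 0.433, 0.265 and 0.128 CPM in FaDu and 81.4, 95.3 and 65.6 CPM in SAS (log2 fold change -8.22, SE 0.26, adjusted p = 2.9e-09). TGFB1, the ligand with most known roles, had 24.5 ± 5.5 CPM in FaDu and 108 ± 6.68 CPM in SAS, and TGFB3 was higher in FaDu (1.83). TGFBR2, the type II receptor that binds these ligands, read 27.7, 23.4 and 26.8 CPM in FaDu and 183, 222 and 174 CPM in SAS (log2 fold change -2.89, SE 0.10, adjusted p = 3.8e-10). TGFBR1, the type I receptor, was not altered (-0.57). SMAD4, the common partner of the receptor-activated SMADs, had no count in FaDu and 58.2, 52.3 and 53.8 CPM in SAS, at least 1110-fold lower in FaDu, and SMAD2 and SMAD3 were not altered (-0.22 and -0.73). LTBP2 and LTBP3, latent TGF-beta binding proteins, had log2 fold changes of -4.19 and -2.28. INHBA, the activin A chain, read 10.7, 2.02 and 1.71 CPM in FaDu and 108, 128 and 100 CPM in SAS, with a log2 fold change of -4.59 and, without FaDu Control 1, -5.91. Of the BMP arm, BMP7 was higher in FaDu at 69.3 ± 5.2 CPM against 9.64 ± 1.1 CPM, and ID3, a target of it, in SAS (-3.31).

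Notch genes, which drive squamous differentiation, were altered in both directions, 7 higher in FaDu and 3 in SAS of 25 tested (median log2 fold change 0.27), or 40% beside 38.0% of all genes. NOTCH1 read 90.6, 151 and 139 CPM in FaDu and 107, 103 and 132 CPM in SAS, overlapped and was not altered. Without FaDu Control 1 the number higher in SAS was 5, and under glmTreat that higher in FaDu was 4. MAML2, a coactivator of Notch, had 2.44 ± 1.15 CPM in FaDu and 54.7 ± 6.95 CPM in SAS. The Notch genes higher in FaDu are not named here.

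WNT genes were altered in both directions, 15 higher in FaDu and 11 in SAS of 41 tested (median log2 fold change 0.27). These are 36.6% and 26.8%, beside 21.2% and 16.8% of all genes. Of the tested WNT genes 2 had no count in SAS, so no other direction was open to them. Of the ligands, WNT4 read 29.7, 74.1 and 65.3 CPM in FaDu and 1.42, 1.1 and 0.477 CPM in SAS (log2 fold change 5.80, SE 0.61, adjusted p = 0.00061). WNT7B, a ligand of epithelia, had 189 ± 42.8 CPM in FaDu and 39.6 ± 7.9 CPM in SAS. WNT10A, which acts in skin and teeth, had 14.9 ± 4.06 and 59.9 ± 3.16 CPM, and WNT3A 1.02 ± 0.151 and 8.6 ± 0.489 CPM, both higher in SAS. WNT5A, a ligand of the noncanonical branch, had 1.14, 2.07 and 1.75 CPM in FaDu and no count in SAS, at least 28.9-fold higher in FaDu. Of the Frizzled receptors FZD8 and FZD10 were higher in FaDu (log2 fold changes 5.70 and 2.25), FZD3 in SAS (-1.37), and the coreceptors LRP5 and LRP6 were not altered (0.44 and 0.91), although LRP6 passed at 1.02 under upper-quartile scaling. The secreted antagonists DKK1 and DKK3 were higher in SAS, with 298 ± 21.9 and 104 ± 5.07 CPM there and 102 ± 11.3 and 21.6 ± 0.973 CPM in FaDu. APCDD1, a membrane inhibitor of the pathway, read 12.3, 31.5 and 33.1 CPM in FaDu and had no count in SAS, at least 448-fold higher in FaDu, with FaDu Control 1 the lowest of the 3. The transcription factors LEF1 and TCF7L2 were not altered (-0.20 and -0.08, the latter of the other sign under upper-quartile scaling), and TCF7 was higher in SAS (-1.46).

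The Hippo pathway limits YAP activity, and its list here also holds targets of YAP. Of the 30 genes tested, 3 (10%) were higher in FaDu and 13 (43.3%) in SAS, beside 21.2% and 16.8% of all genes. The list had a median log2 fold change of -0.80. All 3 genes higher in FaDu had no count in SAS. Of the 13 higher in SAS 1 had none in FaDu, and no other direction was open to any of these genes without a count. AJUBA, a LIM protein that holds back the LATS kinases, read 0.108, 0.796 and 0.684 CPM in FaDu and 402, 338 and 446 CPM in SAS (log2 fold change -9.49, SE 0.30, adjusted p = 2.4e-07). VGLL3, a cofactor of the TEAD factors, had 1.55 ± 0.786 CPM in FaDu and 464 ± 47.1 CPM in SAS, YAP1 itself was not altered (-0.49), and FAT1, an upstream cadherin, is described with the genes without a count.

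Interferon-stimulated genes were, among lists of over 4 tested genes, the list with the largest share altered in a single direction. Of the 47 interferon-stimulated genes tested, 39 (83%) were higher in FaDu and 1 (2.13%) in SAS, beside 21.2% and 16.8% of all genes. The gene higher in SAS was the guanylate-binding protein GBP3 at -1.86, and the list had a median log2 fold change of 3.44. IFI27, a mitochondrial interferon-induced protein, held 107769 counts over the FaDu libraries and 2 over the SAS libraries, a ratio of 46500 (95% counting interval 12900 to 384000). Both SAS counts of IFI27 lay in SAS Control 3, and without it IFI27 was at least 21100-fold higher in FaDu. IFI6 read 628, 601 and 586 CPM in FaDu and 3.88, 3.63 and 3.69 CPM in SAS (log2 fold change 7.34, SE 0.08, adjusted p = 6.5e-15). ISG15, the ubiquitin-like modifier, had 484 ± 74.6 CPM in FaDu and 9.21 ± 2.27 CPM in SAS, and the sensor OAS2 420 ± 29.3 and 1.19 ± 0.268 CPM. IRF9, a member of the complex that binds the promoters of such genes, had a log2 fold change of 3.10.

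The promoters of 4 interferon-stimulated genes are shown as annotated by RefSeq in GRCh38.p14, 300 bases each, with every match in capitals of GAAA, any 2 bases and GAAA on either strand, so that a match on the other strand appears as TTTC, 2 bases and TTTC. This is a core of the interferon-stimulated response element. The motif was found in 1255 of 35116 promoters of the same length (3.57%). Of the 47 listed genes 34 had an entry in the promoter table, under the 80% needed, so the check over the list is void and only single promoters are described. IFI27 (chr14:94110486-94110785, plus strand) and ISG15 (chr1:1013247-1013546, plus strand) held 2 matches each, IFI6 (chr1:27672143-27672442, minus strand) held 3, and BST2 (chr19:17405581-17405880, minus strand), the tetherin gene with 87.3 ± 13.4 CPM in FaDu and 2.07 ± 1.02 CPM in SAS, held 2. Overlapping matches share letters. XAF1, with 23 ± 2.17 CPM in FaDu and no count in SAS, had 0 matches in its window. A match describes letters and not a bound site.
IFI27: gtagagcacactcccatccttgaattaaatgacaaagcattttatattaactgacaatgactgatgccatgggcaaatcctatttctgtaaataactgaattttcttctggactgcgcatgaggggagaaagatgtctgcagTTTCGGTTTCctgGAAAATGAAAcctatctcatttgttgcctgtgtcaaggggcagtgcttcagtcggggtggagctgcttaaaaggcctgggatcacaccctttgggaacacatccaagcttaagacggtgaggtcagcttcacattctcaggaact
ISG15: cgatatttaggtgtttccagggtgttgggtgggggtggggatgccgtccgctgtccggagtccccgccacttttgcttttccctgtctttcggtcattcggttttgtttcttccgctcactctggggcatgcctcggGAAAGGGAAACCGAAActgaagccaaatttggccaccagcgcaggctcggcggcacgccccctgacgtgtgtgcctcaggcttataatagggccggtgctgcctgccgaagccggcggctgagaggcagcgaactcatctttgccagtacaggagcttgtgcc
IFI6: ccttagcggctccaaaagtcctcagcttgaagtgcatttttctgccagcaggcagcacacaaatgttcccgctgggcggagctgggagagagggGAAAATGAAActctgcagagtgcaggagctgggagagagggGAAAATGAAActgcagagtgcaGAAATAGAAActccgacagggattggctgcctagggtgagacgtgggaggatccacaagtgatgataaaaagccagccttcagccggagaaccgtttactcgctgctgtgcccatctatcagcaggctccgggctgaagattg
BST2: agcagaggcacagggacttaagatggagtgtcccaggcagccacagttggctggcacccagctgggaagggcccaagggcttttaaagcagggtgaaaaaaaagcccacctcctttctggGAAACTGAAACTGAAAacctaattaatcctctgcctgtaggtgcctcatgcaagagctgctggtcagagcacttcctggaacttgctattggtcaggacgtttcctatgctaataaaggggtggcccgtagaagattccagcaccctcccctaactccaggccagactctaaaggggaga

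Antigen presentation genes showed the same direction. Of the 25 tested, 19 (76%) were higher in FaDu and 1 (4%) in SAS, beside 21.2% and 16.8% of all genes. The gene higher in SAS was CD274, the ligand of the checkpoint receptor PD-1, and the list had a median log2 fold change of 1.89. HLA-B, a class I heavy chain, read 1080, 1270 and 1200 CPM in FaDu and 119, 102 and 84.9 CPM in SAS (log2 fold change 3.53, SE 0.13, adjusted p = 1.4e-08), and HLA-C had 1490 ± 43.5 CPM in FaDu and 147 ± 12.1 CPM in SAS. Class I genes are similar to each other and vary between people, so the share of reads that each line lost to the reference alleles is unknown. B2M, the invariant light chain, read 1350, 1330 and 1320 CPM in FaDu and 549, 490 and 435 CPM in SAS (log2 fold change 1.44, SE 0.08, adjusted p = 3.9e-09). NLRC5, the transactivator of class I genes, had 102 ± 5.44 CPM in FaDu and 13.3 ± 0.975 CPM in SAS. Peptide supply was split, with the transporter TAP1 and the trimming enzyme ERAP2 higher in FaDu (log2 fold changes 1.89 and 4.77) and TAP2 and ERAP1 not altered (0.03 and 0.21). Of class II, HLA-DRA read 9.26, 22.5 and 19 CPM in FaDu and had 1 count in SAS, a ratio of 897 (95% counting interval 161 to 35500), and at least 192-fold higher in FaDu without SAS Control 1, which held that count, and its transactivator CIITA had 2.33 ± 0.669 CPM in FaDu and 0.81 ± 0.383 CPM in SAS. CD274 read 4.01, 4.14 and 3.8 CPM in FaDu and 21.7, 25.7 and 11.1 CPM in SAS (log2 fold change -2.30, SE 0.31, adjusted p = 0.00029). Without FaDu Control 1 the list held 20 genes higher in FaDu and 2 higher in SAS, and CIITA did not pass under glmTreat.

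Of the 32 cytokines and chemokines tested, 13 were higher in FaDu and 6 in SAS (median log2 fold change 0.48). These are 40.6% and 18.8%, beside 21.2% and 16.8% of all genes. Of the tested members 2 had no count in SAS, so no other direction was open to them. The neutrophil attractants CXCL1 and CXCL8 had 82.3 ± 10.1 and 45.4 ± 1.42 CPM in FaDu and 1.59 ± 0.367 and 1.5 ± 0.222 CPM in SAS. TNFSF10, the death ligand TRAIL, read 71.4, 82.2 and 72.2 CPM in FaDu and 11.1, 5.08 and 14.2 CPM in SAS (log2 fold change 2.89, SE 0.34, adjusted p = 0.00076). IL11, a cytokine of the gp130 family, was higher in SAS (log2 fold change -4.17, and -4.94 without FaDu Control 1), and IL1A and IL1B were not altered (0.34 and 0.42).

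Genes of the cell cycle and the p53 network, kept in a single list, were altered in both directions. Of the 47 tested, 5 were higher in FaDu and 11 in SAS (median log2 fold change -0.20). Altered members made up 34% beside 38.0% of all genes, a difference that was not tested. CCND1, the cyclin D1 that is amplified in many HNSCC, read 675, 632 and 676 CPM in FaDu and 606, 706 and 469 CPM in SAS, overlapped and was not altered (log2 fold change 0.15). CCND2, its relative, read 0.325, 0.637 and 0.726 CPM in FaDu and 131, 152 and 119 CPM in SAS (log2 fold change -7.85, SE 0.17, adjusted p = 9.8e-12). The kinase CDK6 that both activate had 81.4 ± 5.84 CPM in FaDu and 295 ± 54.4 CPM in SAS, and CDK4 was not altered (-0.15). Of the inhibitors, CDKN2A, which encodes p16 and p14ARF, read 26.6, 31.4 and 29.1 CPM in FaDu and 157, 157 and 150 CPM in SAS (log2 fold change -2.41, SE 0.07, adjusted p = 2.4e-11). CDKN2C, CDKN1B and CDKN1C, which encode p18, p27 and p57, were higher in FaDu (log2 fold changes 2.81, 1.30 and 4.24). MDM2, a ubiquitin ligase, and CDKN1A, a further kinase inhibitor, were not altered (-0.20 and -0.14), and the polo-like kinases PLK2 and PLK3 were higher in SAS (-3.46 and -2.50).

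Genes recurrently altered in HNSCC included several already named, and of the 39 tested 9 were higher in FaDu and 6 in SAS (median log2 fold change 0.10). These are 23.1% and 15.4%, beside 21.2% and 16.8% of all genes. Of the tested members 2 had no count in SAS and 1 had none in FaDu, so no other direction was open to them. CTTN, the actin-binding cortactin, read 3340, 3190 and 3260 CPM in FaDu and 466, 445 and 453 CPM in SAS (log2 fold change 2.84, SE 0.06, adjusted p = 1.1e-12). FADD, an adaptor of death receptors, and ANO1, a chloride channel, had 143 ± 8.06 and 128 ± 19.1 CPM in FaDu and 41 ± 5.12 and 44.3 ± 3.96 CPM in SAS. These 3 genes lie with CCND1 in the region of chromosome 11 that is often amplified in HNSCC, and CCND1 did not share their difference. MYC had 190 ± 18.9 CPM in FaDu and 470 ± 31.4 CPM in SAS (log2 fold change -1.30), and PIK3CA, CASP8 and HRAS were not altered (-0.41, -0.53 and 0.12). DNA copy number was not measured.

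Targets of NRF2, the factor of the oxidative stress response, were higher in FaDu in 13 of 30 tested and in SAS in 1. These are 43.3% and 3.33%, beside 21.2% and 16.8% of all genes. The list had a median log2 fold change of 0.72. ALDH3A1, an aldehyde dehydrogenase of squamous mucosa, read 334, 532 and 485 CPM in FaDu and 1.37, 1.33 and 2.32 CPM in SAS (log2 fold change 8.08, SE 0.31, adjusted p = 2.5e-06). AKR1C1, an aldo-keto reductase with near-identical relatives, had 63.5 ± 9.05 CPM in FaDu and 0.0772 ± 0.0364 CPM in SAS, and HMOX1, the heme oxygenase, 73.3 ± 13.9 and 0.951 ± 0.105 CPM. GCLC, the catalytic subunit of glutathione synthesis, read 179, 225 and 237 CPM in FaDu and 36.1, 29 and 35.2 CPM in SAS (log2 fold change 2.68, SE 0.12, adjusted p = 3.9e-08), while its modifier GCLM was not altered (0.17). The ferritin chains FTH1 and FTL, which store iron, had 5960 ± 433 and 2250 ± 43.2 CPM in FaDu and 1240 ± 110 and 759 ± 57.1 CPM in SAS. NFE2L2, which encodes NRF2, and KEAP1, its repressor, were not altered (-0.50 and 0.22). TXNRD1 and SLC7A11, targets often used to read the pathway, were not altered either (-0.64 and 0.12).

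Enzymes of drug, aldehyde and retinoid metabolism were higher in FaDu in 17 of 35 tested and in SAS in 8 (median log2 fold change 0.94). These are 48.6% and 22.9%, beside 21.2% and 16.8% of all genes. Of the tested enzymes 2 had no count in SAS and 1 had none in FaDu, so no other direction was open to them. MGST1, a microsomal glutathione transferase, read 180, 178 and 175 CPM in FaDu with 10786 counts over its libraries and 2 in SAS, a ratio of 4660 (95% counting interval 1290 to 38500). GSTP1, the soluble transferase of epithelial tumours, had 2510 ± 95.2 CPM in FaDu and 639 ± 11.3 CPM in SAS. CYP1A1, the target of the aryl hydrocarbon receptor, read 97.3, 225 and 213 CPM in FaDu and 4.32, 6.23 and 6.44 CPM in SAS (log2 fold change 4.98, SE 0.48, adjusted p = 0.00053). Its receptor AHR was not altered (-0.16), and AHRR, the receptor's repressor, had 4.31 ± 1.03 CPM in FaDu and 46.4 ± 4.39 CPM in SAS. Among retinoid genes ALDH1A1, which makes retinoic acid, had 4.06, 9.4 and 7.22 CPM in FaDu and CYP26A1, which clears it, 6.88, 11.7 and 10.2 CPM, with no count of either in SAS, at least 120-fold and 168-fold higher in FaDu. NNMT, which methylates nicotinamide, had no count in FaDu and 40.8, 44 and 27.1 CPM in SAS, at least 755-fold lower in FaDu. The vitamin D enzymes CYP24A1 and CYP27B1 were higher in SAS (log2 fold changes -1.80 and -2.83).

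Surface proteins used as tumour cell markers were evenly divided, 9 higher in each line of 29 tested. This is 31% in each line, beside 21.2% higher in FaDu and 16.8% in SAS of all genes. The list had a median log2 fold change of -0.11, and 0 under upper-quartile scaling. CD44, the hyaluronan receptor, had 195 ± 73.2 CPM in FaDu and 900 ± 74.8 CPM in SAS, with FaDu Control 1 at 279 CPM. NGFR, the neurotrophin receptor of basal cells, read 12.9, 18.8 and 19.5 CPM in FaDu and 86.1, 114 and 94.6 CPM in SAS (log2 fold change -2.52, SE 0.17, adjusted p = 5.2e-06). LY6K and PSCA, GPI-anchored relatives of LY6D, were higher in SAS at 231 ± 13.6 and 19.2 ± 2.1 CPM against 4.15 ± 0.998 and 0.328 ± 0.18 CPM in FaDu, opposite to LY6D. The membrane mucins MUC1 and MUC20 were higher in FaDu (log2 fold changes 2.81 and 7.23), as was LYPD3, a squamous relative of the urokinase receptor (3.57). PDPN, podoplanin, was not altered (0.01).

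Stress and repair lists had 23.5% (repair), 33.3% (hypoxia) and 33.3% (heat shock) of tested genes altered, beside 38.0% of all genes, a difference that was not tested. Of the 51 double-strand break repair genes tested, 4 were higher in FaDu and 8 in SAS (median log2 fold change -0.26), and the number in SAS was 4 under upper-quartile scaling and 3 under glmTreat. The Ku subunits diverged, with XRCC6 at 1300, 1210 and 1180 CPM in FaDu and 605, 583 and 560 CPM in SAS and XRCC5 at 326, 311 and 309 CPM in FaDu and 681, 667 and 638 CPM in SAS (log2 fold changes 1.08 and -1.07, SE 0.06 and 0.06), and both lay close to the fold limit, XRCC5 at -0.96 under upper-quartile scaling. PRKDC, the kinase they recruit, had 302 ± 50.7 CPM in FaDu and 694 ± 129 CPM in SAS, the helicase BLM 141 ± 11.6 and 31.8 ± 1.34 CPM, and BRCA1, of homologous recombination, was not altered (-0.38). Neither PRKDC nor the Ku genes passed under glmTreat. Of the 36 hypoxia genes tested, 4 were higher in FaDu and 8 in SAS (median -0.12). ALDOC, the aldolase of brain and hypoxic cells, had 142 ± 38.4 CPM in FaDu and 0.763 ± 0.0124 CPM in SAS, the glucose transporters SLC2A1 and SLC2A3 log2 fold changes of 1.51 and -3.32 (the latter -3.92 without FaDu Control 1), and PDK1, a brake on pyruvate oxidation, -2.73. HIF1A read 354, 307 and 320 CPM in FaDu and 326, 307 and 277 CPM in SAS, overlapped and was not altered. Of the 42 heat shock genes tested, 7 were higher in each line (median -0.24) and 4 in each under glmTreat. HSF1 was higher in SAS, with 57.2 ± 3.38 CPM in FaDu and 187 ± 6.33 CPM in SAS.

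Of 52 cancer-testis genes, normally kept to germ cells, 48 had too few reads to be tested and the other 4 were higher in FaDu. For PRAME and DPPA2, with no count in SAS, the filter for low counts was passed through FaDu alone, so no other direction was open to them. MAGEA4 read 157, 159 and 153 CPM in FaDu and 5.52, 5.54 and 4.53 CPM in SAS (log2 fold change 4.91, SE 0.09, adjusted p = 2.7e-13). PRAME read 30, 22.3 and 23.9 CPM in FaDu and had no count in SAS, at least 444-fold higher in FaDu, and DPPA2, a factor of pluripotent cells, had 2.18 ± 0.302 CPM in FaDu and no count in SAS, at least 38-fold higher. With these at their bounds the median of the list was 5.08 and not 6.63.

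A mean of at least 1 CPM in both lines and no overlap held for 3096 altered protein-coding genes. Those with the highest log2 fold changes included OAS2 (8.46), ALDH3A1 (8.08), LY6D (7.71), IFI6 (7.34), TRIM22 (6.58), GPNMB (6.36) and TYMP (6.05). GPNMB, a glycoprotein of melanosomes and lysosomes, read 2140, 2260 and 2220 CPM in FaDu and 29.7, 25 and 25.9 CPM in SAS, and TYMP, the thymidine phosphorylase that activates fluoropyrimidines, 91.2, 98 and 92.5 CPM in FaDu and 1.31, 1.56 and 1.37 CPM in SAS. The 8 with the lowest log2 fold changes were VGLL3 (-8.18), KRT7 (-8.05), FN1 (-7.33), THBS2 (-6.44), RHOBTB3 (-6.35), CPA4 (-6.25), TNC (-6.12) and STMN3 (-5.93). THBS2, a thrombospondin of the matrix, read 0.921, 1.33 and 1.92 CPM in FaDu and 115, 128 and 131 CPM in SAS, RHOBTB3, an ATPase of the Golgi, 2.87, 2.92 and 4.74 CPM in FaDu and 305, 294 and 280 CPM in SAS, and CPA4, a carboxypeptidase, 3.63, 1.96 and 2.78 CPM in FaDu and 180, 222 and 236 CPM in SAS.

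Genes were called silent in a line when its 3 control libraries held no count and each library of the other line held at least 1 CPM. FaDu had 86 silent genes, 0.669% of the 12858 genes at that level in SAS, and SAS had 291, 2.16% of the 13461 genes at that level in FaDu. Protein-coding genes made up 55 and 230 of them. Against the floor, the folds of the genes silent in FaDu were at least 24.1 to 1220 with a median of 86.2, and those of the genes silent in SAS at least 20.6 to 1590 with a median of 63.2. In the 9 treated libraries of the same line, 16 of the 86 genes silent in FaDu again had no count and 58 had at most 3, with 25 the largest sum. For SAS 146 of the 291 again had no count and 229 had at most 3, and the largest sum was 595. The strand used in counting is not stated, so genes that overlap another on the opposite strand and near-identical copies are uncertain.

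The 8 protein-coding genes silent in FaDu with most reads in SAS were ITGA4, NLRP2, MEX3C, SMAD4, TNFRSF10D, SLC43A3, TMX3 and NNMT. NLRP2, an inflammasome-related protein, read 58.8, 57 and 57.6 CPM in SAS, and MEX3C, an RNA-binding ubiquitin ligase, 54.5, 57.6 and 54.8 CPM, at least 1170-fold and 1130-fold lower in FaDu. TNFRSF10D, a decoy receptor of TRAIL, read 47.9, 62.2 and 41.5 CPM in SAS and was at least 1020-fold lower in FaDu. SLC43A3, a purine transporter, and TMX3, a disulfide isomerase of the endoplasmic reticulum, had 50.1 ± 2.81 and 42.7 ± 3.55 CPM in SAS, at least 1010-fold and 864-fold lower in FaDu. Among those silent in SAS with most reads in FaDu were PRSS21, FAT1, HOOK1, TUSC3, GDA, ARHGAP6 and CYB5A. PRSS21, a serine protease of testis, read 81, 100 and 92.4 CPM in FaDu, and FAT1, an atypical cadherin that is recurrently mutated in HNSCC, 60.3, 91.7 and 92.5 CPM, at least 1590-fold and 1420-fold higher there. HOOK1, a linker of cargo to microtubules, had 73.8, 74.8 and 82.9 CPM in FaDu, and TUSC3, a subunit of the N-glycosylation complex, 73, 71.1 and 69 CPM, at least 1350-fold and 1240-fold higher. GDA, the guanine deaminase, ARHGAP6, a GTPase-activating protein, and CYB5A, the cytochrome b5, had 64.9 ± 6.37, 46.7 ± 1.84 and 40.8 ± 2.67 CPM in FaDu.

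**Figure D3:**
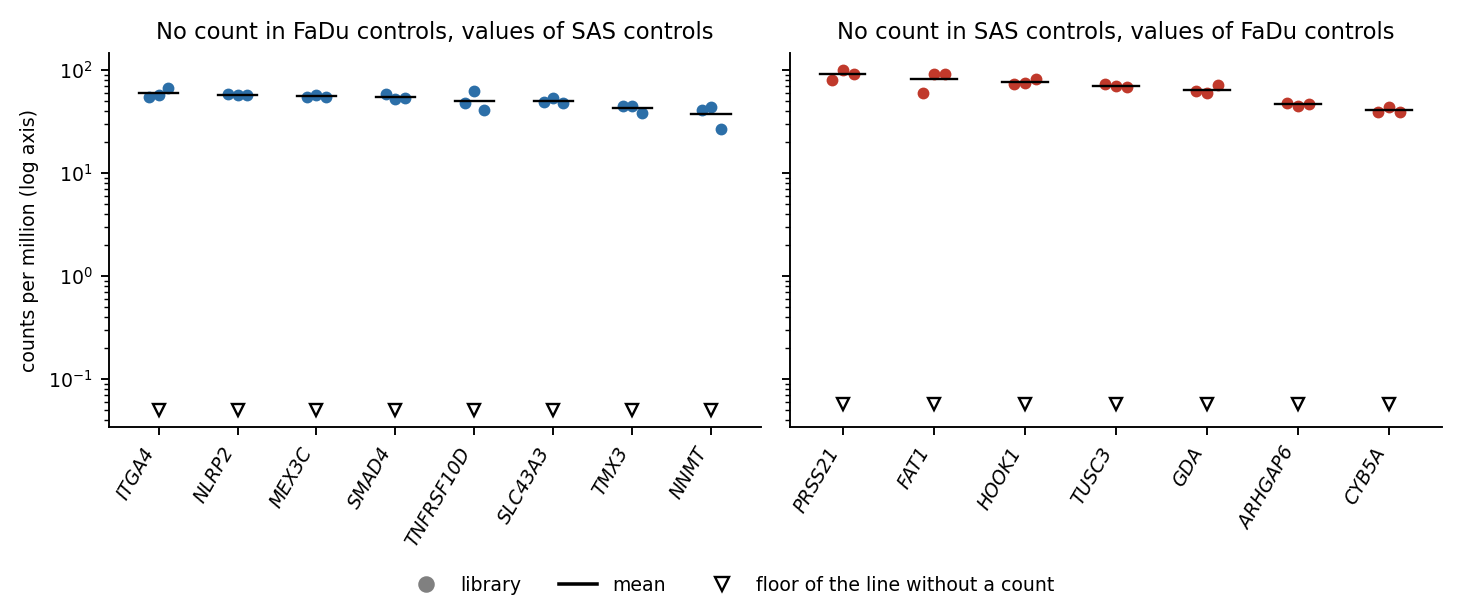
CPM (log axis) of 15 protein-coding genes with many reads among those without a count in the FaDu controls (left, values of the 3 SAS libraries as points) and in the SAS controls (right, values of the 3 FaDu libraries), with bars at the mean and triangles at the floor of 3 counts over the 3 libraries of the line without a count. The values lie far above the floor of 0.0494 CPM in FaDu and 0.0572 CPM in SAS.

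Promoters of silent genes were read for CG, the dinucleotide that carries DNA methylation, which was not measured here. The median number of CG in 300 bases, from 250 before to 50 after the start, was 14 over all 35116 promoters and 27 over 9272 protein-coding genes with at least 1 CPM in both lines. It was 14 for the 45 promoters matched to the 55 protein-coding genes silent in FaDu and 21 for the 184 matched to the 230 silent in SAS. ITGA4 (chr2:181457136-181457435, plus strand), silent in FaDu, held 31 CG and FAT1 (chr4:186726647-186726946, minus strand), silent in SAS, 40. Both are shown from RefSeq GRCh38.p14 with each CG in capitals, as examples with a CG-dense start and not as typical of their sets. At least 20 CG were held by 37.8% of the matched promoters of genes silent in FaDu and 52.2% of those silent in SAS. Among protein-coding genes with at least 1 CPM in both lines this share was 74.6%.
ITGA4: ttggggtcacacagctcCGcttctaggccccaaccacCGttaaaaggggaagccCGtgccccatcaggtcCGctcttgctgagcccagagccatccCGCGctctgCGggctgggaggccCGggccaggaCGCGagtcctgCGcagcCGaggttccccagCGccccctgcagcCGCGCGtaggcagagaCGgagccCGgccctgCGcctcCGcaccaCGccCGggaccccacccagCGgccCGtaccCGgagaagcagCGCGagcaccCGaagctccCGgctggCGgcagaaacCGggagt
FAT1: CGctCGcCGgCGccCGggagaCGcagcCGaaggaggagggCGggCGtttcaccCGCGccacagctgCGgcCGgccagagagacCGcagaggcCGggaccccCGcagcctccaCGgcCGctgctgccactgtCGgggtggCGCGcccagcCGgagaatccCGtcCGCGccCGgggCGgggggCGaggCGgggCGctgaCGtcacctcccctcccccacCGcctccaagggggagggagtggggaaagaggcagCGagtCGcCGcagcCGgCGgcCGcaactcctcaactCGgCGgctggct

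Some of the genes low in a line lay side by side. Among genes with at least 1 CPM in either line and in the order of GENCODE v29, 5 runs of at least 3 neighbours had at most 3 counts over the FaDu controls and held 23 genes, and 15 such runs in SAS held 49. How many runs chance would give was not tested. In FaDu a run on chromosome 8 held TNFRSF10D, TNFRSF10A and 2 noncoding genes, while TNFRSF10B beside it had 66.3 ± 10.1 CPM in FaDu and 90.3 ± 14.3 CPM in SAS and was not altered. TNFRSF10A and TNFRSF10B are the death receptors of TRAIL, and TNFRSF10A read 30.9, 38 and 28.6 CPM in SAS, at least 658-fold lower in FaDu. A run on chromosome 18 held ME2, a malic enzyme, ELAC1, SMAD4 and MEX3C, between SKA1 and MBD2 with 10 ± 1.74 and 63.5 ± 2.83 CPM in FaDu. The longest, of 7 genes on chromosome X, held RRAGB, KLF8, NBDY, SPIN2B, FAAH2, ZXDB and ZXDA, of which NBDY had most reads in SAS at 17.6 ± 2.86 CPM. A run of 3 genes with KISS1 and GOLT1A on chromosome 1 and a run of 5 pregnancy-specific glycoprotein genes on chromosome 19, which are near-identical and so uncertain, completed the set. In SAS 3 runs on chromosome 19 held 12 genes, 9 of them protein-coding zinc finger genes such as ZNF83 with 24 ± 4.26 CPM in FaDu, HOOK1 stood with CYP2J2 and a noncoding gene on chromosome 1, and CRISPLD1 with 26.9 ± 1.19 CPM in FaDu stood between PI15 and the noncoding CASC9 on chromosome 8. GABRP, RANBP17 and TLX3 on chromosome 5, the last a homeobox factor of neurons with 10.8 ± 0.305 CPM in FaDu, ended at NPM1, which had 931 ± 63.7 CPM in FaDu and 2070 ± 104 CPM in SAS.

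**Figure D4:**
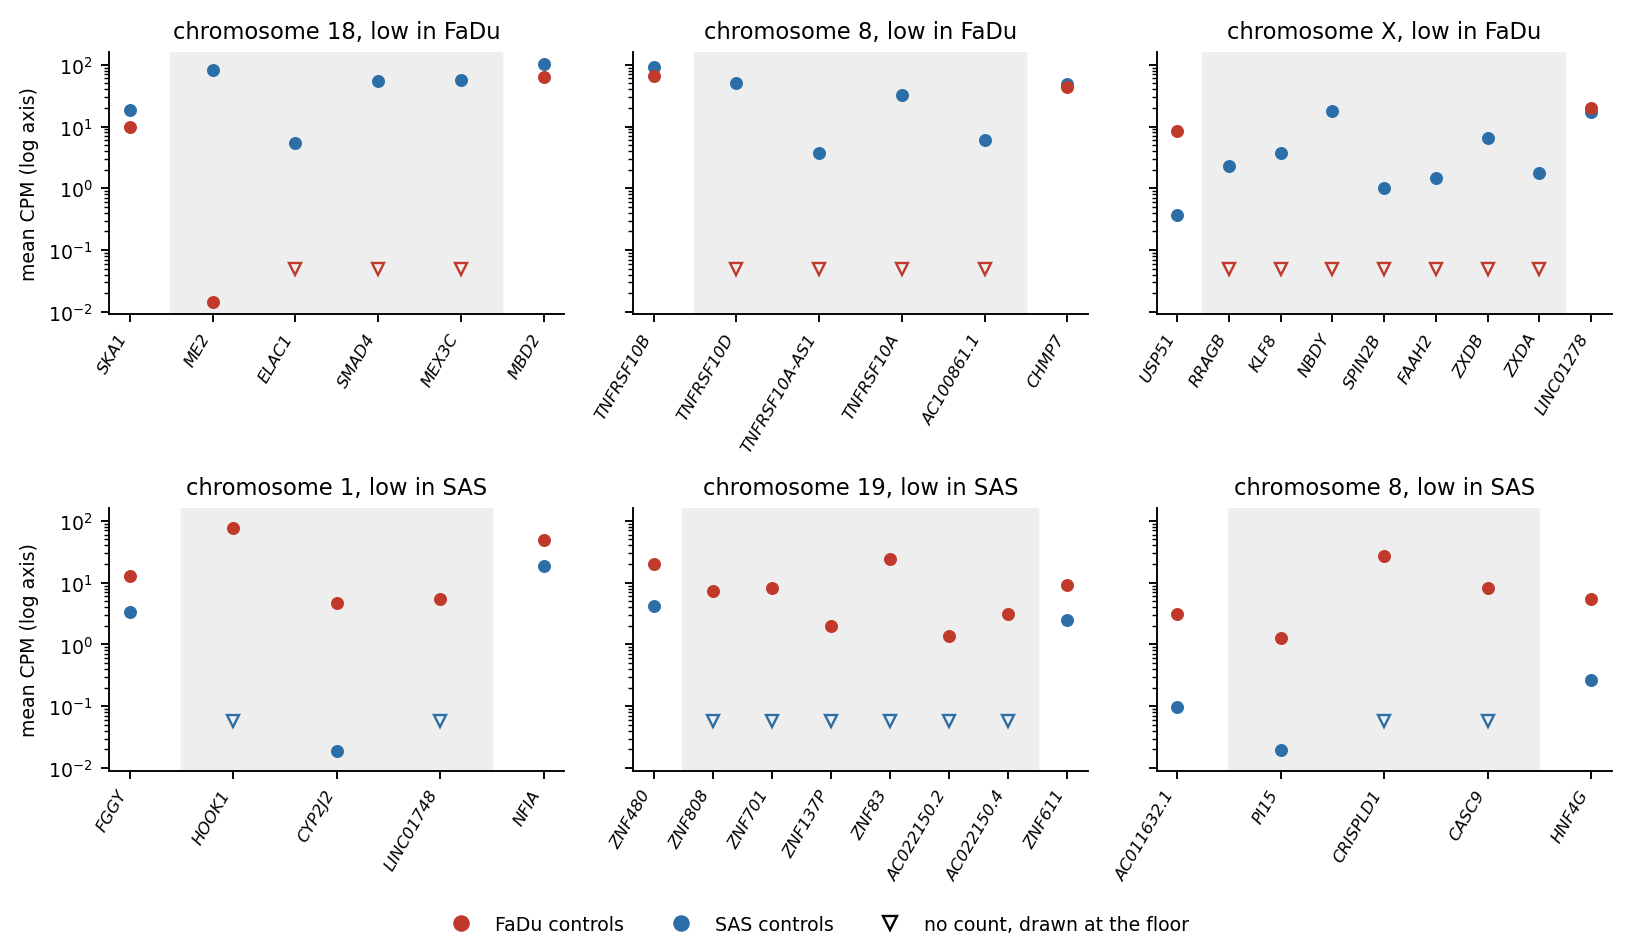
Mean CPM (log axis) of neighbouring genes in gene order (no distances) in 6 of the 20 runs, red points for the FaDu controls, blue for the SAS controls, triangles at the floor where a line had no count, and the run shaded. Genes on both sides of the shaded run had reads in the line where the run was low. Beside the CRISPLD1 run these were few, 5 counts of AC011632.1 and 14 of HNF4G over the SAS controls.

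The comparison of the lines was made again in 6 other libraries, the RT libraries taken 0.5 h after irradiation. These may come from the same experiments as the controls and are not an independent repeat. As deviations from their group, control and RT libraries of the same number correlated at 0.51, 0.29 and 0.17 in FaDu and at 0.14, 0.18 and 0.22 in SAS. In FaDu the number did not single out a partner for the third pair, since FaDu Control 3 with RT 2 gave 0.23 and FaDu Control 2 with RT 3 gave 0.19. Of 16030 genes tested there, 6197 or 38.7% were altered. Of the 6013 genes altered in the controls, 5857 were tested there, 5421 (90.2%) were altered in the same direction and 0 in the opposite direction. The median absolute difference between both log2 fold changes was 0.10, and 88.7% of the 15545 genes tested in both lay within 0.5. SOX2 stood at 5.42 in the controls and 6.25 after RT, KRT7 at -8.05 and -8.14, FGFR3 at 4.48 and 4.68, CCND2 at -7.85 and -8.52, and IFI6 at 7.34 and 7.29. Some named genes moved further, with MMP10 at 10.83 and 7.5, NRG4 at 4.1 and 2.65, and CDKN1C at 4.24 and 2.97. HBEGF, at -1.54 and -1.2, was not altered after RT (adjusted p = 0.057). The interaction of line and RT was tested in 16811 genes by edgeR. It passed in 0 genes (0%) at the same thresholds, with 428 at an unadjusted p under 0.05, and in 1 gene by DESeq2. In a fit blocked by replicate number 1 gene passed, with 926 at an unadjusted p under 0.05. FaDu received 7 Gy and SAS 10 Gy, so line and dose cannot be told apart after RT.

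**Figure D5:**
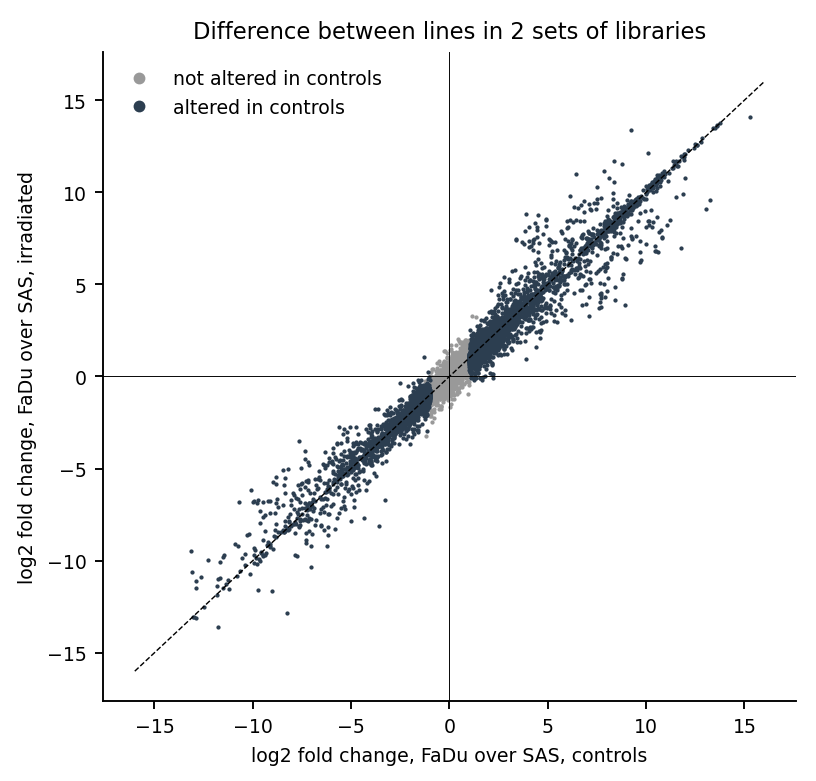
Log2 fold change of FaDu over SAS in the control libraries (horizontal) and in the irradiated libraries (vertical), a point for each of 15545 genes tested in both, dark if altered in the controls, with the line of equality dashed. The points follow the dashed line, and scatter grows at high values, where fitted folds of genes with few or no counts are no bounds.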

How the data were processed

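RNA-Seq of spheroids of the HNSCC lines FaDu and SAS was read from deposited tables that give, per Ensembl gene, the raw count in each library. The authors also deposited a normalized signal, the raw counts divided by 1 size factor per library, listed only for genes with over 60 counts summed over 6 libraries, and it was used in an alternative only. The authors prepared libraries with NEBNext Ultra II Directional kits, sequenced on a NovaSeq, converted base calls with bcl2fastq 2.19 and normalized and tested with DESeq2. The aligner, counter, strand setting and annotation are not stated, and the build listed with the data is a mouse build while the gene identifiers are human. Gene names, types and order were taken from GENCODE v29, which holds 56898 of the 57500 listed genes, and the other 602 carry 0.0212% of the counts. Control libraries that several tables repeat were used once.

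The 3 FaDu Control libraries were compared with the 3 SAS Control libraries, and the 3 irradiated libraries of each line in the same way. Genes were kept by filterByExpr at a count minimum of 10, scaled by TMM and tested with the robust quasi-likelihood F test of edgeR 4.0.16 in R 4.3.3, with Benjamini-Hochberg correction. Altered means that the adjusted p was below 0.05 and the log2 fold change beyond 1 in either direction. The SE is the absolute log2 fold change over the square root of F. The interaction of line and irradiation was tested over 12 libraries at the same limits. With 3 libraries per group and 17690374 to 21862472 counts per library, genes of few counts are measured loosely.

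The alternatives were DESeq2 1.42.0, RLE and upper-quartile scaling, no filter, at least 10 counts in every library and a single fit of all 24 libraries. Further ones were a block for the replicate number, glmTreat, limma 3.58.1 on the log2 normalized signal plus 1, and the adjusted p without a fold limit. Each library was also left out in turn, and other limits were used for silent genes. The gene lists without FaDu Control 1, and named genes under upper-quartile scaling and glmTreat, were added after seeing the data. The 31 program lists and 5 marker lists were written from general knowledge, and members and lists were chosen with earlier results of these data known. Genes were named by rule: silent genes with most reads and runs of neighbours, the 8 highest and 8 lowest log2 fold changes, in each list 2 to 5 altered members by reads or fold and members that define its role, and 6 genes as contrast (TP63, CDH1, EGFR, CCND1, NOTCH1 and HIF1A). Some genes that meet the rule are not named, and some lists have fewer than 2 altered members named. Further members were named after their values were seen, among them most that were not altered and some altered ones that make a list exceed 5. Genes of the Y chromosome and XIST were left out of all names, silent genes and figures. Tables and figures were made in Python 3.11.15 with pandas 2.3.3 and matplotlib 3.10.9.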

Additional observations from a re-analysis of the deposited data

Results flagged for a closer look

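Genes without a count in the SAS controls were looked up in the SAS libraries exposed to heat, which the comparisons of the lines do not use. Of these genes, 2 had at least 10 counts in each of the 3 libraries of a treated group. CRYAB, a small heat shock protein, had 292 counts over the 3 HT libraries and 303 over the 3 HT+RT libraries of SAS. RARA-AS1, a noncoding gene on the strand opposite RARA, had 61 counts in the HT and 41 in the HT+RT libraries, and how many of them belong to RARA is unknown because the strand of counting is not stated. The differences between heated and control libraries of these genes were not tested.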

How the results depend on the processing

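The number of genes altered between the controls, 6013, lay at 7003 by DESeq2, 6016 with RLE scaling, 6071 with upper-quartile scaling, 7952 without a filter, 7007 in a single fit of all 24 libraries, 4615 by glmTreat, 5750 by limma and 6108 to 6412 when each library was left out. Outside 1.5 times that count were 3656 with at least 10 counts in every library, a filter that tests fewer genes, and 11844 by the adjusted p alone, which drops the fold limit. Upper-quartile scaling moved the median log2 fold change of all genes by 0.115 to 0.143, and the counts to 3699 higher in FaDu and 2372 in SAS. The sign of the fitted log2 fold change was then other for 1 of 301 named genes, TCF7L2, and for the median of the surface marker list, and with RLE scaling for 0 of them.

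For the irradiated libraries 6197 genes became 3752 with at least 10 counts in every library, and the counts were 6295 to 6593 when each library was left out. The interaction of line and irradiation, 0 genes by edgeR, passed for 1 gene by DESeq2 (CYR61), 1 without a filter (MIR222HG) and 1 by adjusted p alone (PIM1), and the cause was not tested.

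With the replicate number as a block 5981 genes were altered between the controls and 6179 between the irradiated libraries, and 1 gene (CYR61) passed the interaction, with 926 at an unadjusted p under 0.05. The profiles of same-numbered libraries of both lines, each as deviation from its group, correlated at 0.08, -0.02 and 0.10.

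The 86 genes silent in FaDu became 166 when up to 3 counts over the 3 libraries were allowed, 16 when all 12 libraries of the line had to lack a count, 30 when the other line had to reach 5 CPM and 89 to 109 when a library was left out. The 291 genes silent in SAS became 146, 99 and 294 to 330 under the last 3 of these. These limits admit or remove genes by construction.

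Of 62 list counts, 0 moved by over 1.5 times under DESeq2, RLE scaling or the block, 1 under upper-quartile scaling (double-strand break repair higher in SAS, 8 to 4), 6 under glmTreat and 2 without FaDu Control 1, chosen after seeing the data. Under glmTreat desmosome genes higher in FaDu went from 4 to 2, Notch genes from 7 to 4, heat shock genes from 7 to 4 in each direction, ERBB genes higher in SAS from 6 to 3 and repair genes higher in SAS from 8 to 3. Of the 301 named genes tested, 1 changed its call by DESeq2 (LCN2, to altered), 0 with RLE scaling and at most 5 when a library was left out. Under 2 settings added after seeing the data, upper-quartile scaling took the call from 2 (EPCAM and XRCC5, at -0.94 and -0.96) and gave it to 3 (ERBB2, LRP6 and LCN2, at 1.04, 1.02 and 1.97), and glmTreat took it from 12 (CIITA, DSP, EPCAM, GRHL3, HBEGF, KLF5, KLK8, PKP1, PRKDC, S100A9, XRCC5 and XRCC6). The cause of these moves was not tested.

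The comparison holds 3 control libraries per line, counted against an annotation that is not stated. Whether a gene without reads in the controls of a line was deleted, silenced or unmappable was not tested. Some of these genes had reads in treated libraries of the same line, such as CRYAB with 292 counts in the SAS HT libraries. Neither DNA nor protein was measured. Line and irradiation dose, and line and the culture it was kept in, cannot be told apart. Low counts limit the folds of genes at or near 0, and near-identical genes share reads in an unknown way.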
